A study of Mus musculus with 17 samples.

Results

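Fos, Fosb, Jun, Junb, Egr1, Egr2, Egr3, Atf3, Dusp1 and Ier3 are immediate-early genes, and their mRNA was followed here in sorted mouse eosinophils. The 10 genes were taken by their symbol in the platform annotation, out of 22180 genes measured, and each was read by 1 probe set. All mice carried the CC10-IL13 transgene, in which a promoter of airway club cells (CC10) drives interleukin-13 once doxycycline (Dox) is fed. Male and female mice of 6 to 8 weeks were either Pirb-/- or littermate Pirb+/+, called knockout and wildtype here. Pirb encodes an inhibitory receptor of myeloid cells. Eosinophils were sorted as CD45+, Siglec-F+ and CCR3+ cells. The esophagus was digested with collagenase and marrow was passed through a needle before sorting, so tissue and preparation cannot be told apart. The 6 groups were esophagus after 2 weeks of Dox in knockout and in wildtype (3 arrays each), marrow after 2 weeks of Dox in knockout and in wildtype (3 arrays each), and marrow without Dox in knockout (3 arrays) and in wildtype (2 arrays). A further wildtype marrow array without Dox was dropped by the submitters for low hybridization signal.

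Immediate-early genes are switched on within minutes of a stimulus, from transcription factors already present in the cell and without new protein synthesis. Kinases of the MAPK cascades, and kinases that they activate, phosphorylate serum response factor partners, CREB and ATF2, which then raise transcription of the FOS, JUN and EGR genes. FOS and JUN proteins pair into the dimeric factor AP-1, EGR proteins are zinc finger factors, and products such as the phosphatase DUSP1 switch the kinases off again. In granulocytes these genes respond to cytokines, to adhesion and also to handling such as enzymatic digestion of tissue.

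Values are centred log2 intensities. Each probe set was centred on its own median before deposit, so a value is a distance from that gene's median array, and neither levels of different genes nor the presence of a transcript can be read from it. The log base was taken as log2 and is not stated in the sources used here. Differences are log2 differences between group means with the standard error (SE) of a limma fit over all 17 arrays, and the threshold was an adjusted p of 0.05 over all genes. In such bulk samples, fewer cells that express a gene and less of its RNA per cell cannot be told apart.

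Array medians over genes lay between -0.05 and 0.21. Knockout marrow replicate 3 without Dox stood apart, with an SD over genes of 0.80 against 0.23 to 0.61 in the other arrays. Its correlation with its own group was -0.03. Many counts and values that move with this array are given with and without it. A count given once is from the fit of all arrays and may move too. The outlying array also enters the common fit of every comparison: without it the share of all genes called higher in the esophagus was 9.75% in knockout and 25.1% in wildtype. The deleted gene itself did not separate the genotypes. Pirb was at 0.77, 1.20 and 1.02 in knockout esophagus and at 2.17, 0.75 and 0.92 in wildtype esophagus. Whether its probes lie in the deleted stretch is not known, so this value checks nothing, and the genotypes below are as labelled.

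The stretches upstream of 5 members whose mRNA was higher in the esophagus are shown because such genes are known to be induced through short elements close to their start. Of these 5, Egr2 passed in knockout only, and each holds a marked match. A match below is a match of letters, not a tested site. Each is the 250 bases before a RefSeq transcript start (GRCm38.p6), written 5′ to 3′ along the gene's strand. Capitals mark TGACG or its reverse complement CGTCA, the core of the cAMP response element that CREB and ATF factors bind, and in Egr2 also a CArG box, the element of serum response factor.
Fos, chr12:85473640-85473889, plus strand: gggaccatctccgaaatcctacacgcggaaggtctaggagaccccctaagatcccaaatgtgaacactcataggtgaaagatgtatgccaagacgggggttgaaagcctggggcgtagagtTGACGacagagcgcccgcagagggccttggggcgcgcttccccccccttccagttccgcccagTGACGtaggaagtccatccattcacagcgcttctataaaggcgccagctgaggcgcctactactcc
Fosb, chr7:19310046-19310295, minus strand: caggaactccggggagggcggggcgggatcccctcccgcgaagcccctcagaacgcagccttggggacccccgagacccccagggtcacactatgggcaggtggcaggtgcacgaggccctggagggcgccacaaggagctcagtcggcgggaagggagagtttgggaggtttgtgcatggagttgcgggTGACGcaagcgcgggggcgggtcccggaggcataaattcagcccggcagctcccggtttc
Egr2, chr10:67537619-67537868, plus strand: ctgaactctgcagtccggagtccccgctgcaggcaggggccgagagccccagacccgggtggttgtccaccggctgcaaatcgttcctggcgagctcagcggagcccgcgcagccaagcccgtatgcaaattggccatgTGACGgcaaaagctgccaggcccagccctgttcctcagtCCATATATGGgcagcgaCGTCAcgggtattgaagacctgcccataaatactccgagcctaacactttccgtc
Atf3, chr1:191183334-191183583, minus strand: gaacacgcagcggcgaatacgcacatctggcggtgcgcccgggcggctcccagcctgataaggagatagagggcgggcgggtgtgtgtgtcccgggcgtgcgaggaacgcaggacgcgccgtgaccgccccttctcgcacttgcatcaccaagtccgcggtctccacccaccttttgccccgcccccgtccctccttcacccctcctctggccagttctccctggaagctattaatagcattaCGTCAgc
Dusp1, chr17:26508473-26508722, minus strand: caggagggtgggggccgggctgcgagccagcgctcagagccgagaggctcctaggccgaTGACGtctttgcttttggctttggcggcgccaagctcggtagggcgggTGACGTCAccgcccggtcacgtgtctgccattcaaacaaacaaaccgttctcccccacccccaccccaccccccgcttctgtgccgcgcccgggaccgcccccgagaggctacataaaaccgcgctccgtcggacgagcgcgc

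Dusp1 held the full palindrome TGACGTCA, which contains TGACG on both strands and begins 143 bases before the start, and a further TGACG at 191 bases. Fos had TGACG at 129 and 66 bases, Fosb at 60 bases and Egr2 at 111 bases. On the opposite strand it lay at 55 bases in Egr2 and at 7 bases in Atf3. In Egr2 the CArG box began at 72 bases, between both TGACG matches. Egr2 had 5 windows, and the one with the most matches is shown. Searched on both strands, TGACG was found in 6 of the 8 members with a window, those shown and Junb, and in 19.8% of 27025 genes counted the same way, by any window of a gene. TGACGTCA was found in 1.77% of genes, the CArG box in 1.62% and the EGR motif GCGNGGGCG, which of the members only Fosb held, in 5.33%. The AP-1 motif TGANTCA was in none of the 8 members and in 7.82% of genes. Jun and Ier3 had a window without TGACG and are not shown. Egr1 and Egr3 are named only.

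The tissue comparison asked how eosinophils of the IL-13-exposed esophagus differed from those of the marrow of mice fed the same way. Most of the 10 genes were higher in the esophagus. With Dox, 9 of 10 passed the test upward in knockout, where 4.5% of all genes did, and 7 of 10 did so in wildtype, where 8.11% did. None was lower, where 6.04% of all genes were in knockout and 7.06% in wildtype. The median difference of the 10 was 1.88 in knockout, beside 0.06 over all genes, and 1.32 in wildtype, beside 0.14 over all genes. The knockout esophagus had the highest of the 6 group means for 9 members and the wildtype esophagus for Dusp1.

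Both FOS subunits of AP-1 were higher in the esophagus in both genotypes. Fos was at 0.75, 1.14 and 1.38 in knockout esophagus and at -0.46, 0.10 and -0.35 in knockout marrow with Dox. In wildtype, Fos was at 1.08, 0.16 and 0.92 in esophagus and at -0.39, -0.30 and -0.15 in marrow. The tissues did not overlap in either genotype, although wildtype esophagus replicate 2 was only just above marrow. Fos was higher in the esophagus by 1.33 ± 0.23 in knockout (SE, adjusted p = 0.00214) and by 1.00 ± 0.23 in wildtype (adjusted p = 0.0132). Fosb was at 1.64, 2.05 and 2.12 in knockout esophagus and at -0.26, -0.28 and -0.33 in knockout marrow. Wildtype values were 1.30, 0.55 and 2.29 in esophagus and -0.33, -0.34 and -0.45 in marrow. All marrow arrays of Fosb lay close together, and the wildtype esophagus arrays were spread widely above them. The difference was 2.23 ± 0.31 in knockout (adjusted p = 0.000497) and 1.75 ± 0.31 in wildtype (adjusted p = 0.00351).

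Of the JUN subunits, Junb passed in both genotypes and Jun in knockout. Jun, the most strongly activating JUN protein, was at 1.27, 2.35 and 1.69 in knockout esophagus and at -0.25, -0.35 and -0.04 in knockout marrow with Dox. In wildtype, Jun was at 1.10, 0.32 and 0.20 in esophagus and at -0.27, 0.47 and -0.35 in marrow, and the tissues overlapped. Jun was therefore higher in knockout by 1.98 ± 0.30 (adjusted p = 0.00091), while the wildtype difference of 0.59 ± 0.30 did not pass (adjusted p = 0.172). Junb, which can oppose Jun in a dimer, was at 1.41, 0.92 and 1.20 in knockout esophagus and at -0.18, -0.21 and -0.15 in knockout marrow. The wildtype arrays were at 1.24, 0.98 and 1.27 in esophagus and -0.14, 0.00 and -0.28 in marrow. The esophageal arrays of both genotypes shared 1 range. Junb was higher by 1.35 ± 0.20 in knockout (adjusted p = 0.000614) and by 1.30 ± 0.20 in wildtype (adjusted p = 0.00113).

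Of the EGR factors, Egr1 passed in both genotypes, Egr2 in knockout and Egr3 in neither. Egr1, the most widely induced of them, was at 1.88, 1.36 and 1.63 in knockout esophagus and at -0.40, -0.28 and -0.55 in knockout marrow. Wildtype values were 1.58, 0.56 and 1.32 in esophagus and -0.08, -0.36 and -0.11 in marrow. The differences were 2.03 ± 0.25 in knockout (adjusted p = 0.000189) and 1.34 ± 0.25 in wildtype (adjusted p = 0.00443). For Egr1 the tissues did not overlap in either genotype. Egr2, a factor also known from myeloid and lymphoid differentiation, was at 1.09, 1.35 and 1.05 in knockout esophagus and at -0.43, -0.09 and -0.43 in knockout marrow. In wildtype, Egr2 was at 1.14, 0.09 and 1.46 in esophagus and at 0.27, 0.18 and -0.43 in marrow. Replicate 2 of wildtype esophagus lay inside the marrow range. The Egr2 difference was 1.48 ± 0.29 in knockout (adjusted p = 0.00439), while that in wildtype, 0.89 ± 0.29, missed the threshold (adjusted p = 0.0521). Without wildtype esophagus replicate 2 the wildtype difference was 1.29 (adjusted p = 0.00266). That was the largest of the alternatives run, where the difference went down to 0.61 and the adjusted p up to 0.201.

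Egr3, an EGR factor best known from nerve and T cells, did not pass in either genotype. It was at -0.01, -0.08 and 1.41 in knockout esophagus and at -0.04, -0.19 and -0.01 in knockout marrow. The wildtype arrays were at 0.16, 0.37 and 0.23 in esophagus and 0.13, -0.17 and 0.07 in marrow. A single knockout esophagus array was high, and the other esophageal arrays were near the marrow values. Neither the knockout difference of 0.52 ± 0.31 (adjusted p = 0.360) nor the wildtype difference of 0.25 ± 0.31 (adjusted p = 0.564) passed.

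Atf3, a stress-induced partner of JUN proteins, had the largest difference of the 10 genes in knockout. It was at 2.48, 2.27 and 2.48 in knockout esophagus and at -0.27, -0.25 and -0.36 in knockout marrow. Wildtype values were 2.30, 0.22 and 1.84 in esophagus and -0.22, -0.23 and 0.03 in marrow. The knockout arrays were tight, and 1 of the 3 wildtype esophagus arrays was far below its group. Atf3 was higher in the esophagus by 2.70 ± 0.37 in knockout (adjusted p = 0.000467) and by 1.59 ± 0.37 in wildtype (adjusted p = 0.0153).

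The remaining pair of members act on signalling. Dusp1 encodes a phosphatase that inactivates p38 and JNK kinases, and of the 10 members it had the smallest range over the 6 esophageal arrays. It was at 1.70, 2.01 and 1.90 in knockout esophagus and at -0.43, -0.40 and -0.53 in knockout marrow with Dox. The wildtype arrays were at 2.02, 1.74 and 1.92 in esophagus and -0.43, -0.33 and -0.44 in marrow. The esophageal values of both genotypes overlapped closely, far above all marrow arrays. The difference was 2.32 ± 0.11 in knockout, a 5.0-fold higher level where the values are taken as log2 (adjusted p = 5.15e-08). In wildtype it was 2.30 ± 0.11 (4.92-fold, adjusted p = 6.99e-08). By p-value Dusp1 ranked 13 of 22180 genes in knockout and 11 in wildtype.

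Ier3 encodes a small protein that modulates cell death and ERK signalling. It was at 1.54, 1.32 and 1.59 in knockout esophagus and at -0.07, -0.40 and -0.42 in knockout marrow. Wildtype values were 2.19, 0.22 and 1.11 in esophagus and -0.33, -0.34 and 0.18 in marrow. The tissues did not overlap, but 1 wildtype esophagus array was close to the highest marrow array. Ier3 was higher by 1.78 ± 0.35 in knockout (adjusted p = 0.00465) and by 1.34 ± 0.35 in wildtype (adjusted p = 0.0236).

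The arrays of both tissues did not overlap for 9 members in knockout, where 28.0% of all genes were apart upward, and for 8 in wildtype, where 33.0% were. The wildtype count of 7 moved with single arrays. The share of all genes called higher in wildtype moved too, from 2.42% to 26.1% across the alternatives run, so the changes are not read as particular to the members. The count was 4 without wildtype marrow replicate 1 with Dox or with only the compared groups in the fit, when Fos, Atf3 and Ier3 no longer passed. It was 5 without wildtype esophagus replicate 3, when Atf3 and Ier3 no longer passed, 6 without wildtype marrow replicate 2 with Dox, when Ier3 no longer did, and 8, with Egr2, without wildtype esophagus replicate 2 or without the outlying marrow array. The knockout count was 9 in every one of these fits.

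**Figure D1:**
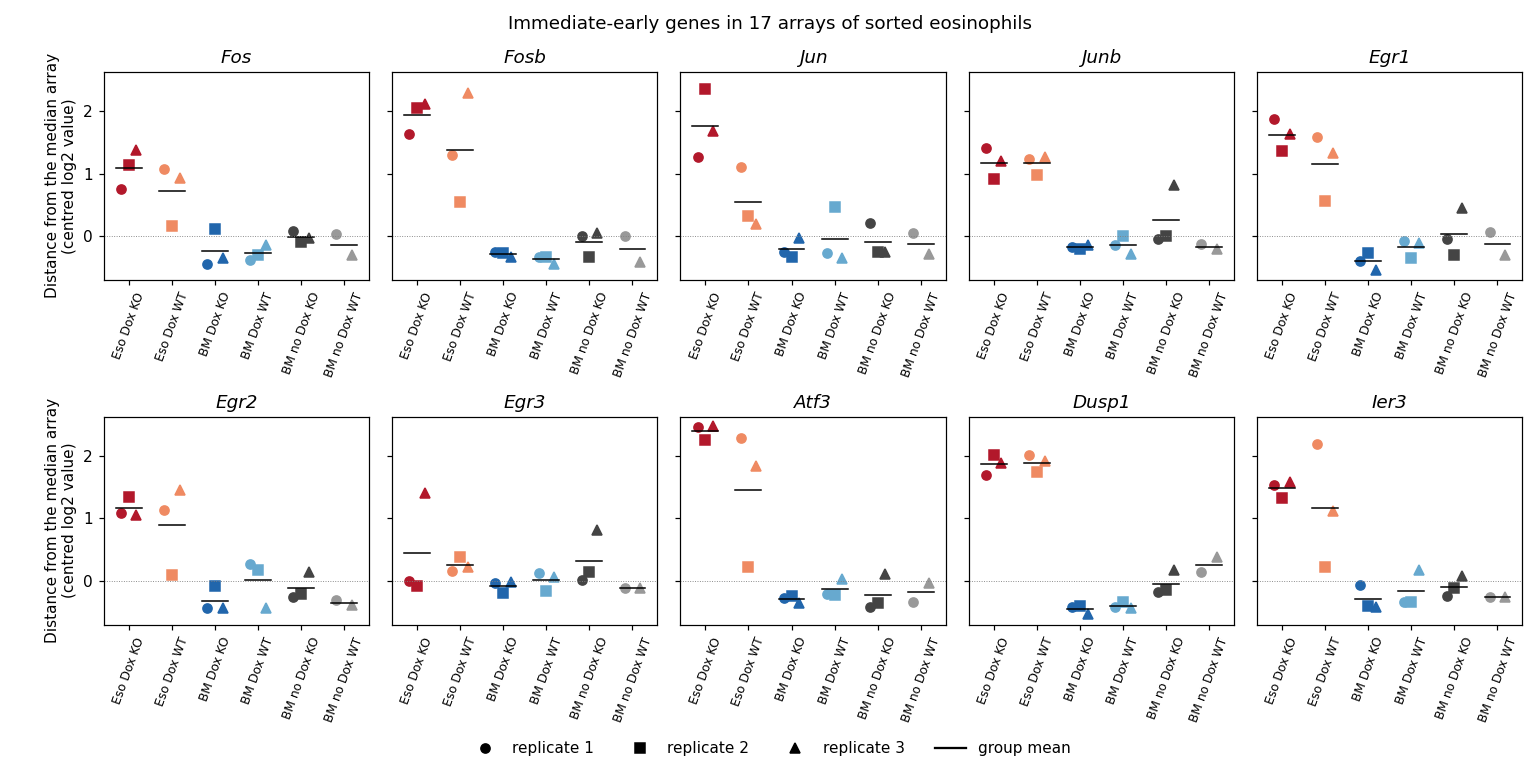
Centred log2 value (y axis) of each of the 10 members in the 17 arrays, by group (Eso, esophagus; BM, bone marrow; KO, knockout; WT, wildtype), with a marker shape for each replicate number and a line for each group mean. Both esophageal means lie above all marrow means for 9 members, the exception being Egr3, and replicate 2 of wildtype esophagus is low for 6 members.

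**Figure D2:**
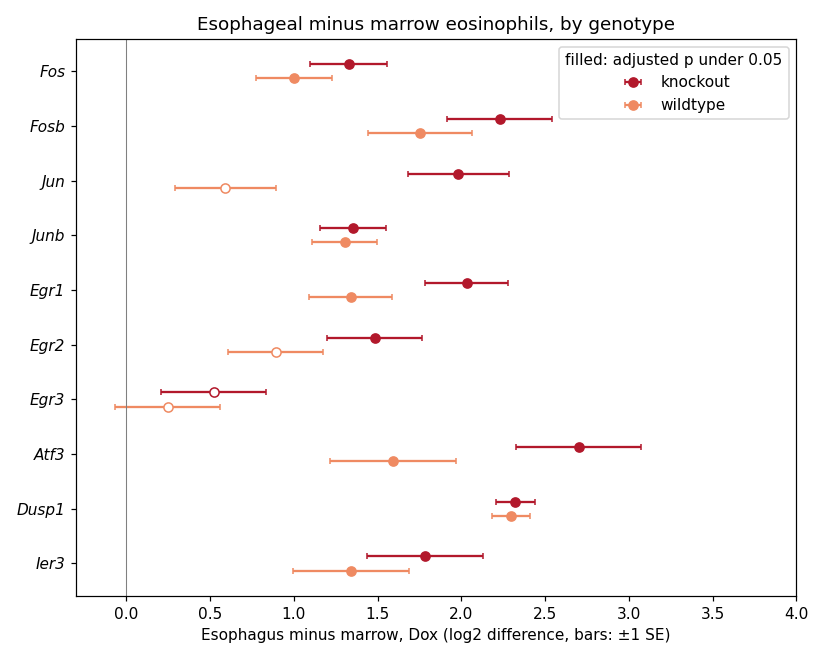
Esophagus minus marrow difference with Dox (log2, x axis) of each member, in knockout and wildtype, with bars of 1 SE and filled points for an adjusted p under 0.05. Filled points number 9 in knockout and 7 in wildtype, and Dusp1 is nearly the same in both.

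The genotype comparison within the esophagus asked whether the loss of the inhibitory receptor went with different levels of these genes. None of the 10 passed the test between arrays labelled knockout and wildtype, where 0.311% of all genes passed upward and 0.0361% downward. Of the 10 differences, 9 were positive, with a median of 0.34 beside -0.10 over all genes, and 2 had an unadjusted p under 0.05. Jun had the largest difference, 1.23 ± 0.30 (adjusted p = 0.123), and was the only member whose knockout esophagus arrays were all above the wildtype ones, as 5.67% of all genes were. The lowest knockout array for Jun was at 1.27 and the highest wildtype array at 1.10. Jun passed without wildtype esophagus replicate 1 (1.51, adjusted p = 0.0270), when 1.58% of all genes passed upward. It also passed with array quality weights (1.37, adjusted p = 0.0488), when 2.06% did. It was at an adjusted p of 0.0512 without the outlying marrow array, and after quantile normalization it was at 0.83 (adjusted p = 0.891).

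Atf3 came next with 0.96 ± 0.37 (adjusted p = 0.286). Fosb differed by 0.56 ± 0.31, Egr1 by 0.47 ± 0.25, Fos by 0.37 ± 0.23, Ier3 by 0.31 ± 0.35, Egr2 by 0.27 ± 0.29 and Egr3 by 0.19 ± 0.31, none past the threshold. Junb at 0.01 ± 0.20 and Dusp1 at -0.027 ± 0.11 were nearest to 0.

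Wildtype esophagus replicate 2 carried much of this. It was the lowest of the 6 esophageal arrays for Fos, Fosb, Egr1, Egr2, Atf3 and Ier3. The mean over the 10 members was 1.38, 1.47 and 1.64 in the knockout esophagus arrays and 1.41, 0.52 and 1.26 in the wildtype ones. Without wildtype replicate 2, the median difference of the 10 was 0.12, Atf3 differed by 0.34 (adjusted p = 0.595) and Jun by 1.12 (adjusted p = 0.326). The median was 0.54 without wildtype replicate 1 and 0.51 without wildtype replicate 3. Without single knockout esophagus arrays it ranged from 0.29 to 0.42. The mean of the MAPK cascade kinase genes was 0.37 to 0.48 in the knockout esophagus arrays and 0.21, -0.46 and -0.16 in the wildtype ones, lowest in the same replicate 2, and that array's median over genes was the highest of the esophageal arrays at 0.13. The part of these values in the members' low level was not tested.

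The spread of the members differed between groups. The median SD of the 10 members was 0.25 in knockout esophagus and 0.51 in wildtype esophagus, and 0.12 and 0.15 in knockout and wildtype marrow with Dox. The SD of Jun was 0.55 in knockout esophagus and 0.49 in wildtype esophagus, and that of Atf3 was 0.12 in knockout esophagus and 1.09 in wildtype esophagus.

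**Figure D3:**
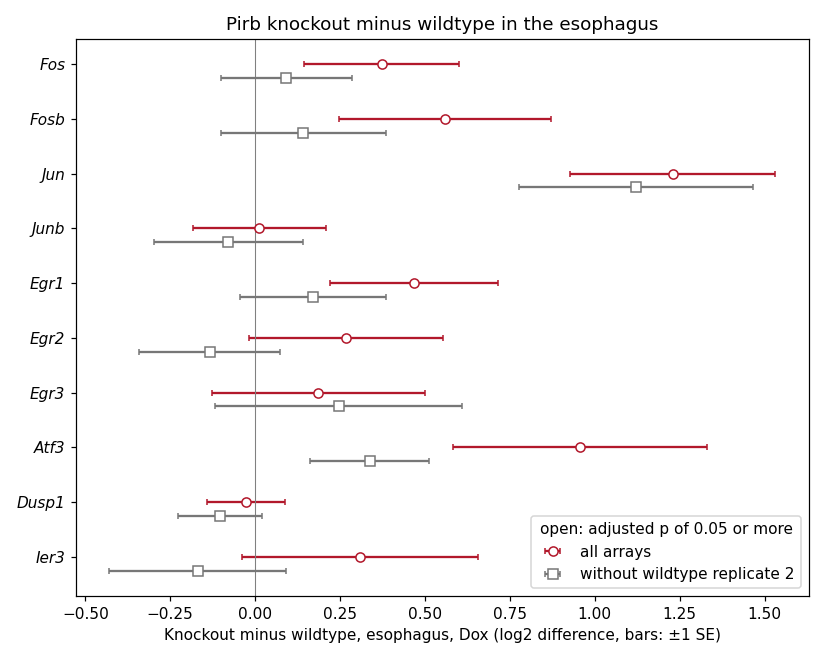
Knockout minus wildtype difference (log2, x axis) of each member in the esophagus with Dox, over all arrays (circles) and without wildtype esophagus replicate 2 (squares), with bars of 1 SE and open points for an adjusted p of 0.05 or more. All points are open, Jun is farthest from 0 in both settings, and Atf3 moves to 0.34 without that array, against 0.96 with it.

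The test of the interaction asked whether the tissue difference was larger in knockout. It was positive for all 10 members, with a median of 0.46 beside -0.07 over all genes, and none passed, where 0.00451% of all genes passed upward. Jun had 1.39 ± 0.43 (adjusted p = 0.742), Atf3 1.11 ± 0.53 (adjusted p = 0.962) and Egr1 0.69 ± 0.35 (adjusted p = 0.962). Without wildtype esophagus replicate 2 the median was 0.12, against 0.61 without replicate 1 and 0.60 without replicate 3 of that group. The difference between genotypes in which members passed the tissue test was thus not itself shown by a test.

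In marrow, the genotypes differed little for these genes. With Dox none of the 10 passed, as 0.0% of all genes did, and the differences ran between -0.32 for Egr2 and 0.08 for Fosb. For Atf3 all 3 knockout arrays with Dox were below the wildtype ones, as were those of 7.62% of all genes. Without Dox none passed either, again as 0.0% of all genes did, and the differences ran between -0.31 for Dusp1 and 0.44 for Egr3, or between -0.42 for Dusp1 and 0.19 for Egr3 without the outlying array, when Egr1 was at -0.059 against 0.15 with it. For Junb, Egr2, Egr3 and Ier3 all 3 knockout arrays without Dox were above both wildtype arrays, as were those of 17.6% of all genes (the same 4 members and 22.0% of all genes without the outlying array). The outlying knockout replicate 3 was at 0.82 for Junb, 0.82 for Egr3 and 0.45 for Egr1, above the other knockout arrays without Dox for each of them. Without it the differences were 0.14 for Junb, 0.11 for Egr2, 0.19 for Egr3 and 0.076 for Ier3, against 0.42, 0.24, 0.44 and 0.16 with it.

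The Dox comparison within marrow asked how marrow eosinophils differed after 2 weeks of Dox. All mice carried the transgene, so its induction and the feeding of Dox itself cannot be told apart. No member passed in knockout, where 0.0225% of all genes passed upward and 0.0% downward, or in wildtype, where 0.018% and 0.00451% did. Dusp1 was the member with the smallest p. It was at -0.43, -0.40 and -0.53 in knockout marrow with Dox and at -0.18, -0.14 and 0.17 in knockout marrow without Dox. In wildtype it was at -0.43, -0.33 and -0.44 with Dox and at 0.14 and 0.38 without Dox. All 6 marrow arrays with Dox were below all 5 without, as those of 3.77% of all genes were. The Dusp1 difference was -0.40 ± 0.11 in knockout (adjusted p = 0.146) and -0.66 ± 0.13 in wildtype (adjusted p = 0.157). Without the outlying array it was -0.29 in knockout (adjusted p = 0.434) and passed in wildtype at -0.66 (adjusted p = 0.0399). With array quality weights it passed in knockout at -0.31 (adjusted p = 0.0156) and in wildtype at -0.65 (adjusted p = 0.0180). After quantile normalization it passed at -1.08 in knockout (adjusted p = 0.0159) and at -1.35 in wildtype (adjusted p = 0.00418). More genes passed downward in these fits as well. Without the outlying array 6 of 22180 genes did so in wildtype. With array quality weights 2439 did so in knockout and 16 in wildtype, and after quantile normalization 116 and 34. The knockout call with weights was thus 1 among many.

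Over the 10 members, the signs of the Dox differences were mixed between genotypes. In knockout all 10 differences were negative, with a median of -0.21 beside -0.13 over all genes (-0.15 beside -0.05 without the outlying array, when 9 were negative and Atf3 was at 0.10), and in wildtype 6 of 10 were positive, with a median of 0.04 beside -0.01 over all genes. The interaction of genotype and Dox passed for none of the 10, as for 0.0% of all genes.

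The other genes of the pathway were read from lists chosen with earlier results of these data known. Beside every list below, 4.5% of all genes were higher and 6.04% lower in the esophagus of knockout, and 8.11% and 7.06% of wildtype. These are shares of the fit of all arrays, and they differ in the other fits named below. Across the alternatives run, they ranged in knockout from 2.84% to 15.7% higher and from 3.97% to 11.9% lower. In wildtype they ranged from 2.42% to 26.1% higher and from 3.6% to 11.4% lower. Medians over all genes were 0.06 in knockout and 0.14 in wildtype. Among 12 other AP-1 subunits and partners, 3 were higher and none lower in the esophagus of knockout, and 1 was higher and 1 lower in wildtype. Without the outlying marrow array 3 were higher in each genotype and 1 was lower in wildtype. Fosl2, a further FOS subunit, was higher by 2.09 ± 0.29 in knockout and 1.55 ± 0.29 in wildtype. Jdp2, a repressor of AP-1, was higher by 1.44 ± 0.29 and Jund by 1.39 ± 0.31 in knockout, while Atf2, a kinase target that acts upstream of Jun, was lower in wildtype, with a difference of -0.64 ± 0.18. The list's median was 0.34 in knockout, beside 0.06 over all genes, and 0.17 in wildtype, beside 0.14. Of 9 partners and corepressors of EGR factors, 4 were higher in knockout and 3 in wildtype, with none lower. They included Nab1 (1.81 ± 0.32 in knockout) and Nab2 (0.65 ± 0.13 in knockout and 0.57 ± 0.13 in wildtype), which encode corepressors of EGR proteins, and Elk4 (0.73 ± 0.20 in knockout and 1.11 ± 0.20 in wildtype), a partner of serum response factor. Srf itself did not pass, at 0.43 ± 0.16 in knockout and 0.42 ± 0.16 in wildtype.

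Of 34 other immediate-early genes, 25 were higher and 1 lower in the esophagus of knockout, and 26 were higher and none lower in wildtype. Their median was 1.17 in knockout and 1.03 in wildtype. The largest differences were those of Rgs1, which limits G protein signalling (3.95 ± 0.51 in knockout and 4.21 ± 0.51 in wildtype), Tnfaip3, an inhibitor of NF-kappaB (4.07 ± 0.22 and 4.01 ± 0.22), the nuclear receptor Nr4a3 (3.98 ± 0.47 and 2.78 ± 0.47), the antiproliferative gene Btg2 in knockout (4.39 ± 0.45) and Nfkbiz in wildtype (3.11 ± 0.30). The lower one in knockout was Myc, at -0.80 ± 0.20, named here after its value was seen because it stood alone, and at -0.57 ± 0.20 in wildtype it did not pass. After quantile normalization the counts upward were 23 in knockout and 20 in wildtype, with 1 lower in each. Without the outlying marrow array they were 26 in knockout and 29 in wildtype, again with 1 lower in each. The share of all genes moves between fits as well, so these changes are not read as particular to the list.

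A list of cytokine, chemokine and other effector genes of the early response, several of which are also induced without new protein synthesis, had 13 of 18 genes higher in each genotype and none lower. The median was 1.74 in knockout and 0.99 in wildtype. Without the outlying marrow array 14 genes were higher in each genotype. Ptgs2, the inducible cyclooxygenase, was higher by 5.98 ± 0.29 in knockout and 5.94 ± 0.29 in wildtype. Thbs1, which encodes thrombospondin, was higher by 5.54 ± 0.23 and 5.43 ± 0.23, the chemokine gene Cxcl2 by 5.05 ± 0.26 and 4.44 ± 0.26, and Il1b by 4.33 ± 0.42 and 4.40 ± 0.42, each in knockout and in wildtype.

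Of 16 feedback inhibitors of the MAPK cascades, 3 were higher in knockout and 4 in wildtype, with none lower. Without the outlying marrow array 8 were higher in each genotype. Dusp5, an ERK phosphatase, was higher by 2.71 ± 0.16 in knockout and 2.13 ± 0.16 in wildtype, and Dusp16, a JNK phosphatase, by 1.27 ± 0.20 and 0.70 ± 0.20. Dusp6 did not pass, at 1.04 ± 0.46 in knockout and 0.70 ± 0.46 in wildtype. Of 13 MAPK cascade kinases, Map2k3, a kinase of p38, was higher in both genotypes (1.64 ± 0.42 in knockout and 1.35 ± 0.42 in wildtype), Mapk9 was lower in knockout (-0.58 ± 0.16), and the median was 0.02 in knockout and -0.29 in wildtype. After quantile normalization no kinase was higher in either genotype, and without the outlying marrow array 2 were higher and 1 lower in each.

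Genes of heat shock and tissue dissociation moved in both directions. In knockout 1 of 15 genes was higher and 2 lower, and in wildtype 4 were higher and 2 lower (5 higher without the outlying marrow array). The list's medians were 0.17 and 0.11, beside 0.06 and 0.14 over all genes. The mean of the list was 0.22 to 0.40 in knockout esophagus and 0.05 to 0.14 in knockout marrow with Dox. It was 0.24 to 0.68 in wildtype esophagus and -0.16 to 0.10 in wildtype marrow with Dox. This mean includes the large differences of Hspa1b and Hspa1a given below and was not taken without them, so it shows no rise of the list as a whole. The part of the list in the members' tissue difference was not tested. Hspa1b, a heat shock chaperone, was higher by 3.08 ± 0.61 in knockout and 4.25 ± 0.61 in wildtype. Hspa1a is a near-identical paralog, so the signals of both are uncertain, and it was at 2.23 ± 0.80 in knockout, which did not pass, and at 4.20 ± 0.80 in wildtype. Hmox1, a haem oxygenase, was lower, with differences of -2.57 ± 0.24 in knockout and -1.78 ± 0.24 in wildtype. So was the mitochondrial chaperone Hspd1, at -0.58 ± 0.16 in knockout and -0.96 ± 0.16 in wildtype. Quantile normalization left no gene of this list higher in knockout and 3 in wildtype.

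With all arrays in the fit, none of these 7 lists held a gene that passed between knockout and wildtype esophagus. Without the outlying marrow array 6 genes passed, and 1.75% of all genes passed upward and 1.69% downward. Mapk8, Tnf, Dusp5 and Ier5 were then higher in knockout, and Hmox1 and Socs3 lower, of which Ier5 and Socs3 are named after their values were seen. In the fit of all arrays, Mapk8, which encodes the JNK kinase that phosphorylates JUN, was at 2.32 ± 0.53 (adjusted p = 0.0941), Tnf at 1.89 ± 0.40 (adjusted p = 0.0708) and Hmox1 at -1.20 ± 0.24 (adjusted p = 0.0511). Without the outlying array their adjusted p-values were 0.0130 for Mapk8, 0.0330 for Tnf and 0.00995 for Hmox1. Nr4a1, at 1.34 ± 0.34, passed in neither fit, and Dusp5, at 0.64 ± 0.16, had an adjusted p of 0.0173 without that array.

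**Figure D4:**
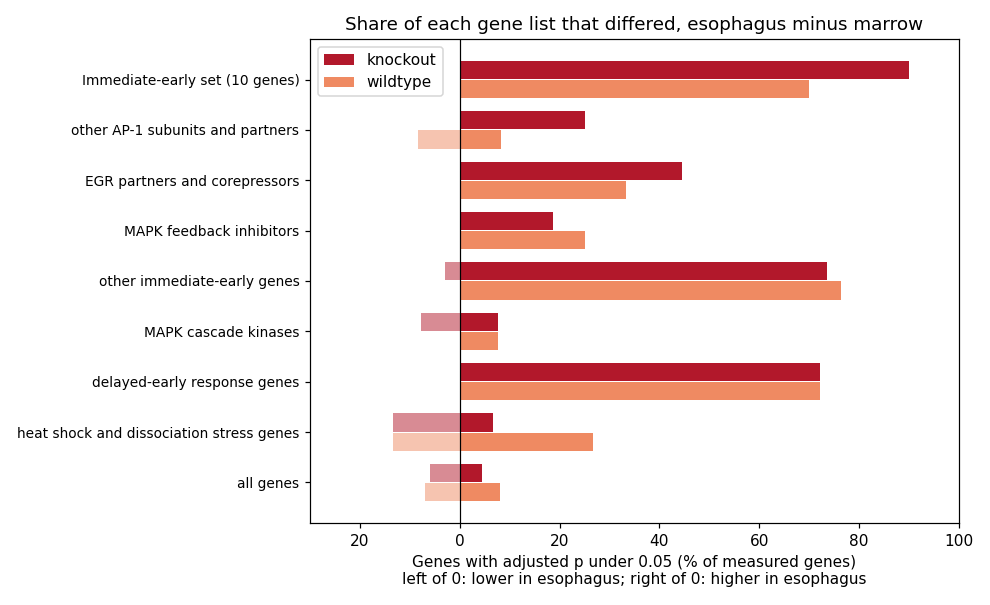
Percent of each gene list that was called higher (dark) or lower (pale) in esophagus than in marrow with Dox, by genotype, beside the percent of all genes. The other immediate-early genes and the effector genes of the early response (delayed-early on the axis) have most of their members called higher, the MAPK kinases few.

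Markers of the sorted cell and of other cells moved with tissue as well. In the fit of all arrays, the shares of all genes beside them were 4.5% higher and 6.04% lower in knockout, and 8.11% and 7.06% in wildtype. These shares move without the outlying array too. Across the alternatives run, the share called lower ranged from 3.97% to 11.9% in knockout and from 3.6% to 11.4% in wildtype. The granule genes of eosinophils were lower in the esophagus. Epx, eosinophil peroxidase, averaged -2.07 ± 0.08 in knockout esophagus and 1.43 ± 0.14 in knockout marrow with Dox (SD, n = 3 each), and -2.01 in wildtype esophagus and 1.50 in wildtype marrow. Of 10 eosinophil markers, 3 were higher and 4 lower in knockout and 1 higher and 3 lower in wildtype, where 5 were lower without the outlying marrow array. Of 14 neutrophil markers, 2 were higher and 10 lower in knockout and 2 higher and 9 lower in wildtype (11 lower without the outlying array). The list mean was -2.19 to -1.97 in knockout esophagus and -0.08 to 0.29 in knockout marrow. It was -2.91 to -2.14 in wildtype esophagus and 0.05 to 0.37 in wildtype marrow. Of 13 monocyte and macrophage markers, 2 were higher and 7 lower in knockout and 2 higher and 2 lower in wildtype (4 lower without the outlying array), and their mean was -0.45 to -0.30 in knockout esophagus and 0.23 to 0.58 in knockout marrow, and -0.33 to -0.10 in wildtype esophagus and 0.30 to 0.38 in wildtype marrow. None of 9 mast cell and basophil markers was higher and 4 were lower in each genotype. Without the outlying array 5 were lower in each and 2 higher in wildtype, the latter near the share of all genes given above for that fit. Of 7 lymphocyte markers 1 was lower in each. Between knockout and wildtype esophagus, 1 eosinophil marker was called higher in knockout and no other marker was called with all arrays in the fit. Over all genes 0.311% passed upward and 0.0361% downward. Without the outlying array, 1 neutrophil, 2 monocyte and macrophage and 1 fibroblast and endothelial marker were also called lower in knockout. In that fit 1.69% of all genes passed downward. The eosinophil list mean was -0.30 to 0.10 in knockout esophagus and -0.82 to -0.34 in wildtype esophagus. The lymphocyte mean was 0.02 in wildtype esophagus replicate 2, and -0.44 and -0.34 in replicates 1 and 3. The part of these values in the members' genotype difference was not tested.

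A further 3 lists held more genes called higher than lower in knockout. Of 7 dendritic cell markers, 3 were higher in each genotype and none lower (4 higher in each without the outlying array). Their mean was 0.54 to 0.65 in knockout esophagus and -0.24 to -0.07 in knockout marrow. It was 0.36 to 0.76 in wildtype esophagus and -0.18 to -0.01 in wildtype marrow. Of 9 fibroblast and endothelial markers, 3 were higher in knockout and 1 in wildtype, or 4 and 5 without the outlying array, with a mean of 0.31 to 0.57 in knockout esophagus and -0.12 to -0.08 in knockout marrow, and of 0.18 to 0.41 in wildtype esophagus and -0.08 to -0.06 in wildtype marrow. Of 8 epithelial markers, 1 was higher in knockout and 1 lower in wildtype, and without the outlying array 2 were higher in each. In wildtype that count was near the share of all genes given above for that fit. Whether a marker is absent cannot be read from centred values. The part of other cells in the members' tissue difference was not tested.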

How the data were processed

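RNA of sorted eosinophils was amplified, labelled with biotin and hybridized to 17 Affymetrix 1-colour arrays, per the labels' protocols, and the submitters' processing notes name Affymetrix Expression Console. The authors deposited log values, taken here as log2, with each probe set centred. In 97.08% of probe sets 0 was the median of 18 arrays, within a tolerance of 2e-05. No source used here states their scaling between arrays. Depth has no counterpart on arrays, and the number of arrays limits the precision.

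Probe sets with 1 gene symbol were averaged per gene. All 22180 genes entered 1 linear model fitted with limma 3.58.1 under R 4.3.3 (6 group means, 9 contrasts), two-sided eBayes tests and Benjamini-Hochberg adjustment over all genes, at a threshold of 0.05. No dim-probe filter was possible on centred values. In simulated data for the esophageal genotype comparison with 200 of 22180 genes changed by 2 on the log2 scale, 92.5% were recovered, with 11 false calls. The noise was drawn with 1 spread per gene for all groups. The largest difference of a member in that comparison was 1.23, so the rate does not say how often differences of the members' size would be found.

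The sample titles gave each array's group and number. No label says that replicates are separate animals, so the spread behind the p-values may be technical. The members, gene lists and tests were chosen with earlier results of these data known. All 10 members are named. Of each list, up to 4 genes that passed and up to 2 that did not, with the largest differences, could be named. Alternatives covered scaling, weights, variance prior, probe sets, the arrays in the fit, a replicate block, a sex covariate from Y-linked genes and leaving out each array. Coordinates are printed only with RefSeq promoter windows, of which 8 of 10 members had one.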

Additional observations from a re-analysis of the deposited data

How the results depend on the processing

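Of the 16 member differences that passed, none changed sign under any alternative run, while 34 of the 74 that did not pass did so under at least 1 of them, and the largest of these 34 was 0.44 in size. The number of members called higher in the esophagus was 9 in knockout without each array in turn and ranged from 4 to 8 in wildtype, where it was also 4 with only the compared groups in the fit, a fit with fewer arrays. Between knockout and wildtype esophagus the count ranged from 0 to 1 without each array in turn. It was 1, Jun, with array quality weights, when 2.06% of all genes passed upward. For Dox in marrow of wildtype it ranged from 0 to 1 without each array in turn. It was 1, Dusp1, in marrow of knockout and of wildtype after quantile normalization. It was also 1, Dusp1, in both with array quality weights, when 2439 of 22180 genes passed downward in knockout and 16 in wildtype. The cause of these changes was not tested.

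Uncalled esophageal genotype differences that turned sign were Junb after quantile normalization (-0.16) and with array quality weights (-0.0221), and Dusp1 after median centring (0.0575) and with the sex covariate (0.0278). Without each array in turn, Junb ranged from -0.11 to 0.14, Egr2 from -0.13 to 0.55, Egr3 from -0.30 to 0.45, Ier3 from -0.17 to 0.82 and Dusp1 from -0.10 to 0.0573. The wildtype tissue difference of Egr3 was -0.15 with the sex covariate.

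Same-numbered arrays of different groups with 3 pairs had correlations of -0.09 to 0.12, so the numbers were not taken to pair the samples. With the replicate block the counts were 9 in knockout tissue, 7 in wildtype tissue and 0 in the esophageal genotype comparison. Over all genes, the share called higher in the esophagus ranged across alternatives from 2.84% to 15.7% in knockout and from 2.42% to 26.1% in wildtype. Median centring moved the wildtype tissue difference of all genes by 0.10 and left 7 members called. Brightness over background could not be read from centred values.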

Other observations

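Across the 12 arrays with Dox, the genes whose deviations from their group means were most like the mean deviation of the 10 members were Tubb5 (r = 0.97), Pot1b (0.97), Gm5154 (0.97), Chtop (0.97) and Neurl3 (0.96). These are descriptions over arrays that share amplification and scaling, chosen from all genes for this likeness. Each of the 5 was lowest in wildtype esophagus replicate 2 among the 6 esophageal arrays. This largely follows from the choice, as the members' mean deviation was itself lowest in that array, at -0.54. Pot1b, a telomere protein gene, was at 1.34, 1.49 and 1.89 in knockout esophagus and at 1.88, -1.40 and 1.10 in wildtype esophagus. Chtop, an mRNA export factor gene, was at 0.19, 0.48 and 0.63 in knockout esophagus and at 0.94, -0.45 and 0.40 in wildtype esophagus. Tubb5, a tubulin gene, was at -2.85, -2.30 and -2.04 in knockout esophagus and at -1.72, -3.75 and -1.76 in wildtype esophagus.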
